A study of Acidomyces sp. 'richmondensis' with 12 samples.

Results

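A group of 92 genes of the acid-dwelling fungus Acidomyces richmondensis MEY-1 lost transcript after 6 h of copper in a strain lacking the gene ArAceA, while copper moved them little in the wild type. They were chosen, out of 10043 genes, from the same libraries that are described here. For each gene the mean FPKM (read fragments counted per length of transcript and scaled by library) was taken over the 3 libraries of a group, and 1 was added before taking log2. A gene was included where copper lowered this value by at least 1 in the deletion strain, where the strains without copper differed by less than 1, and where the change with copper in the wild type lay between -0.5 and 1. The highest group mean had to reach 5 FPKM, and the mean over all libraries had to stay under 1000 FPKM. Every log2 difference given below for a single gene or as a median is a difference of such group means, unless another source is named.

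The 12 libraries came from mycelia in 4 groups of 3 cultures each. The wild type (WT) carried no stated change, and the deletion strain (∆ArAceA) lacked ArAceA. After washing, each was moved to fresh medium that held either no copper or 15 mM CuCl2. The labels describe the cultures as triplicates, and how many independent deletion isolates they represent was not given in the sources used here.

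ArAceA shares its name with AceA, a transcription factor of the mould Aspergillus fumigatus. There, AceA responds to excess copper and switches on genes that remove or bind the metal, among them a copper-exporting P-type ATPase. Copper is a cofactor of respiratory and antioxidant enzymes, and free copper in excess damages proteins and produces reactive oxygen. The files list genes by locus identifier only and pair none of them with a name or product. No role is therefore given to any of the 92 genes, their sequences were not used here, and the level of ArAceA itself was not analysed.

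FPKM sums per library lay between 884111 and 926713, and replicate libraries correlated across all genes tested at r = 0.993 to 0.996. Read numbers per library were unknown. Genes with the fewest reads take values in steps, and 82.7% of 498 such values fell on a whole step to within 0.1, whereas 17.5% did once each value had been rescaled at random. By median, the size of the lowest step lay within 1.04 times between libraries. Only values near each gene's lowest entered this figure, so large differences in depth could not have been seen. No 2 libraries were duplicates, with at most 0.225% of values equal between any pair over genes of at least 10 FPKM in every library.

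The fall in ∆ArAceA was mostly slightly more than 2-fold, with a tail of larger falls. The median of the 92 genes was 43.5 FPKM in ∆ArAceA without copper and 17.4 FPKM with copper, and the median ratio between these means was 2.37. In WT the medians were 31.5 FPKM without copper and 30.8 FPKM with copper. The log2 change in ∆ArAceA had a median of -1.17 and a range of -2.80 to -1.0003, against a median of -0.04 over the 8741 genes tested. It was at most -2 in 8 genes, at most -1.5 in 17 and above -1.2 in 50. Together the 92 genes held 1.13 ± 0.0687% of the summed FPKM in ∆ArAceA (mean ± SD, n = 3 libraries, here and below) and 0.450 ± 0.0341% with copper. Their share was 0.937 ± 0.185% in untreated WT and 0.827 ± 0.0851% in copper-treated WT. In RNA from whole mycelium, fewer hyphae carrying a transcript and less transcript in each hypha cannot be told apart.

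**Figure D1:**
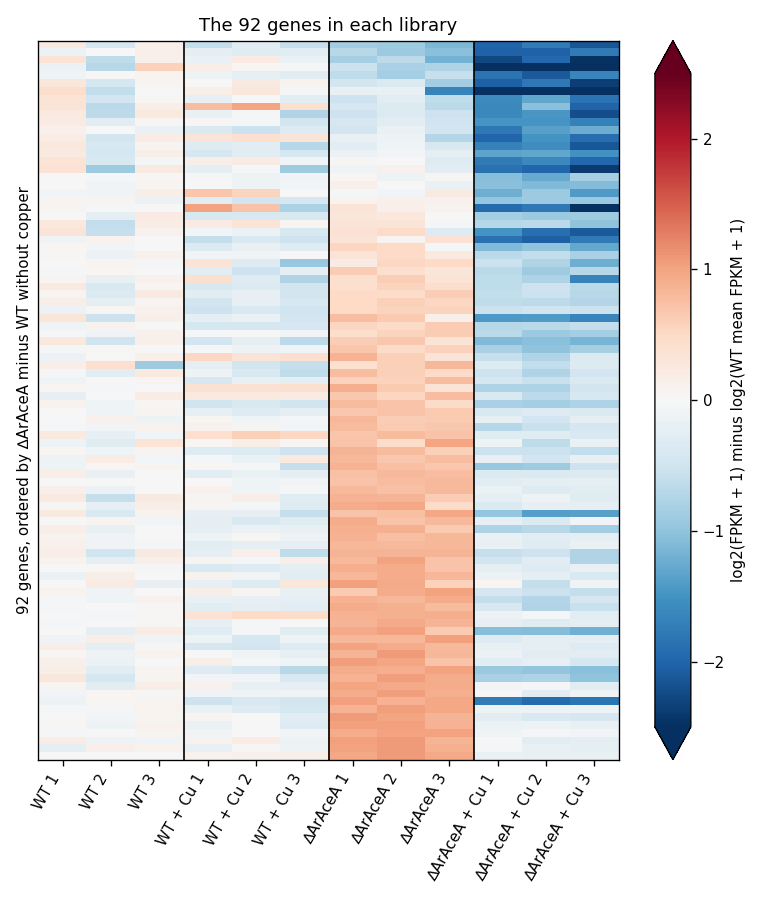
Log2(FPKM + 1) of the 92 genes (rows) in the 12 libraries (columns), each minus the log2(mean FPKM + 1) of the WT libraries without copper. Rows run from the lowest to the highest difference between ∆ArAceA and WT without copper, from -0.95 to 0.99. The ∆ArAceA libraries are redder than WT in the lower rows, and the ∆ArAceA libraries with copper are bluest in the upper rows.

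All 92 genes passed the filter on low values, which asked for 1 FPKM or more in 3 or more libraries, and limma (a linear model on log2(FPKM + 1) with moderated variances) called every one lower with copper in ∆ArAceA at an adjusted p under 0.05. Over all genes tested 31.5% were called lower in that comparison. In all 92 the 3 copper libraries lay below the 3 libraries without copper, as they did in 36.1% of all genes tested. In 65 of the 92 all 9 other libraries, WT included, lay above the 3 ∆ArAceA libraries with copper, against 6.25% of all genes tested. Because the genes were chosen by this fall and by limits on the WT values, these counts describe the group and are no test of it.

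A total of 328 genes met the same fall, floor and ceiling, and the 92 were the ones left by the limits on the WT values. Of the others, 202 were at least 1 higher in ∆ArAceA without copper on the log2 scale, 31 were within the limits between strains but fell by 0.5 or more in WT, and 3 were at least 1 lower in ∆ArAceA. None was removed by the upper limit on the change in WT, since 0 such genes rose there by 1 or more. The limits cut through a continuous spread. Just inside the limit on the fall lay M433DRAFT_212676, M433DRAFT_72855 and M433DRAFT_66763, with changes of -1.005, -1.006 and -1.0003. Just outside it lay M433DRAFT_141737 at -0.9991, and M433DRAFT_271227 and M433DRAFT_209400 at -0.99 each. M433DRAFT_66763 went from 14.5 ± 1.28 to 6.74 ± 0.769 FPKM, and M433DRAFT_212676 from 92.2 ± 13.3 to 45.5 ± 5.74 FPKM.

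**Figure D2:**
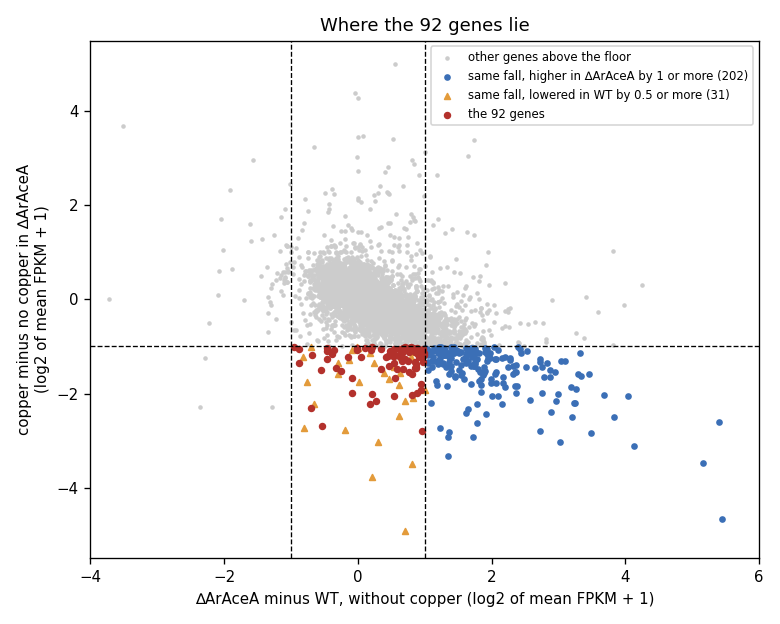
Each point is a gene whose highest group mean reached 5 FPKM and whose mean over 12 libraries stayed under 1000 FPKM. The horizontal axis gives the difference between ∆ArAceA and WT without copper and the vertical axis the change with copper in ∆ArAceA, both as differences of log2(mean FPKM + 1), with dashed lines at the limits. The 92 genes are crowded towards the limit at 1, next to the 202 genes beyond it.

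Most of the genes did not start at the WT level. Without copper they lay above WT in ∆ArAceA by a median of 0.67 on the log2 scale, a median ratio of 1.65, whereas the median over all genes tested was 0.12. The difference exceeded 0.5 in 60 genes, lay from 0 to 0.5 in 13 and was negative in 19, so that 25 lay within 0.5 of WT in either direction. In 71 of the 92, ∆ArAceA without copper had the highest mean of the 4 groups. By limma 64 were called higher in ∆ArAceA without copper, against 40.8% of all genes tested, and 7 lower, against 17.9%, with 21 called neither way. On a scaling that sets the median gene level between libraries (median of ratios) the median log2 difference was 0.52. The calls on that scaling were 59 higher, against 30.9% of all genes tested, and 9 lower, against 31.7%. Leaving out single libraries gave 61 to 64 higher calls, against 37.6% to 41.0% of all genes tested. The lower calls were 12 without WT library 2, against 15.5% of all genes tested. They were 3 without WT library 1 or without ∆ArAceA library 3, and 4 without WT library 3 or without ∆ArAceA library 1. Over all genes tested the lower calls were 15.4% to 17.9% when single libraries were left out. The limits of the choice admit differences of up to 1, and within them the typical gene stood above WT. The untreated ∆ArAceA mean enters both this difference and the fall used for the choice. Choosing a large fall therefore favours a start above WT, and these counts describe the group and are no test of it.

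The genes with the highest starting difference showed it with little scatter. M433DRAFT_67733 had 40.0, 39.6 and 39.9 FPKM in untreated WT, 42.4, 42.7 and 43.4 FPKM in copper-treated WT, 78.5, 84 and 77.9 FPKM in untreated ∆ArAceA, and 35.3, 34.8 and 34.8 FPKM in copper-treated ∆ArAceA. The ∆ArAceA libraries without copper stood apart from the other 9, and those with copper were slightly below all WT libraries. M433DRAFT_150891 had WT means of 11.2 ± 1.71 FPKM without copper and 10.5 ± 0.939 FPKM with it, and ∆ArAceA means of 23.3 ± 1.38 and 10.1 ± 0.809 FPKM. Both were close to the upper limit, with log2 differences of 0.99 without copper, and ended at -0.29 and -0.05 from WT with copper.

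At the other end M433DRAFT_72855 and M433DRAFT_27090 were lower in ∆ArAceA by mean already without copper. M433DRAFT_72855 had 467, 296 and 440 FPKM in untreated WT and 264, 333 and 267 FPKM in WT with copper. It had 220, 217 and 183 FPKM in untreated ∆ArAceA, and 99, 118 and 90.4 FPKM in copper-treated ∆ArAceA. Its WT libraries were all above the ∆ArAceA libraries without copper, and both were above those with copper. M433DRAFT_27090 had WT means of 44.3 ± 4.26 and 36.4 ± 0.692 FPKM without and with copper, and ∆ArAceA means of 23.6 ± 3.02 and 10.9 ± 1.30 FPKM. Their log2 differences from WT were -0.95 and -0.88 without copper and -1.48 and -1.65 with it.

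With copper the level in ∆ArAceA was at or below that of WT in nearly all of the 92 genes. The median log2 difference between the strains with copper was -0.54, against 0.12 over all genes tested, and it was at most -1 in 24 genes, between -1 and 0 in 62 and 0 or more in 6. By limma 62 were called lower in ∆ArAceA with copper, against 11.4% of all genes tested, and 0 higher, against 35.4%, with 30 called neither way. At an unadjusted p under 0.05 limma put 1 gene higher, and 1 was called higher without copper-treated WT library 1. Median-of-ratios scaling gave 74 lower, against 21.5% of all genes tested, and 0 higher, against 21.7%. The 3 libraries of ∆ArAceA with copper all lay below the 3 of WT with copper in 66 genes, against 15.2% of all genes tested. This difference follows from the 3 values used for the choice, by adding the start to the fall and subtracting the change in WT, so it is a description as well.

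With cuts at 0.5 and 1 set after the values were seen, 2 combinations of start and end held most of the 92 genes. The end follows from the start, the fall and the change in WT. These combinations are therefore a description and not separate kinds of gene. In 57 genes the start was more than 0.5 above WT and the end less than 1 below it, with medians over genes of 24.5 FPKM in untreated WT, 28.5 FPKM in copper-treated WT, 46.1 FPKM in ∆ArAceA and 21.9 FPKM in copper-treated ∆ArAceA. In 21 genes the start was at most 0.5 above WT and the end at least 1 below, with medians of 77.1, 82.9, 56.5 and 22.9 FPKM in the same order. Another 11 genes had a start at most 0.5 above WT and an end less than 1 below, and 3 had a start above 0.5 and an end at least 1 below. By limma calls, 36 genes were higher than WT without copper and lower with it, 28 were higher without copper and not called with it, 19 were not called without copper and lower with it, and 7 were lower in both. The remaining 2 were called in neither. The share of all genes tested with each such pair of calls was not computed, so whether these counts are unusual is unknown.

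**Figure D3:**
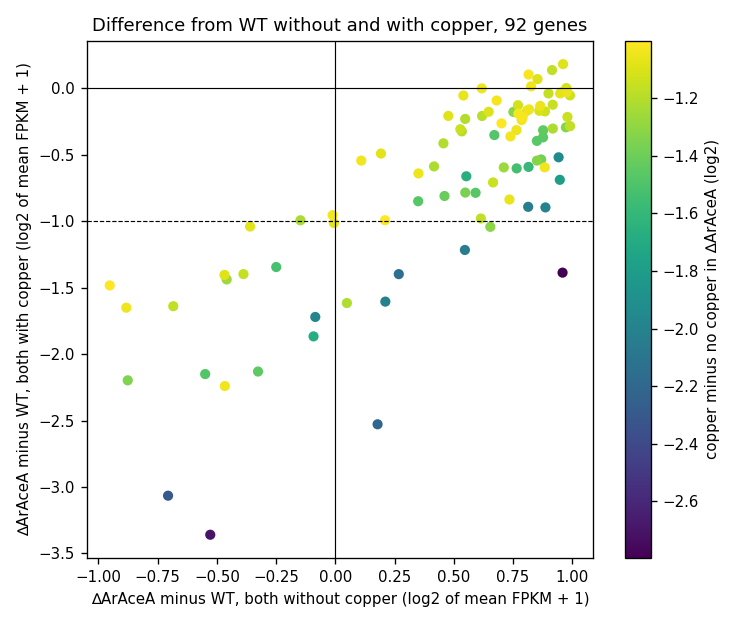
Each of the 92 genes by its difference between ∆ArAceA and WT without copper (horizontal) and with copper (vertical), as differences of log2(mean FPKM + 1). Colour gives the change with copper in ∆ArAceA, from -2.80 to -1.0003. Most genes lie at the upper right, above WT without copper and between 0 and -1 with copper, and the genes left of 0 all lie near or below -1 with copper.

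The largest fall was in M433DRAFT_540604. It had 6.81, 7.81 and 7.92 FPKM in untreated WT, 4.92, 5.57 and 5.19 FPKM in copper-treated WT, 16.4, 14.5 and 15.8 FPKM in untreated ∆ArAceA, and 1.52, 1.23 and 1.39 FPKM in copper-treated ∆ArAceA. No groups overlapped, and the order ran from ∆ArAceA through WT and WT with copper down to ∆ArAceA with copper. The ratio of means was 11.3 in ∆ArAceA, and WT with copper was 3.79 times ∆ArAceA with copper. In WT the copper libraries were also the lower ones, with a log2 change of -0.45, close to the limit of -0.5.

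A pair of genes was listed at 0 in 1 of the 3 ∆ArAceA libraries with copper. M433DRAFT_62085 had 33.5, 15.6 and 24.2 FPKM in untreated WT, 27.1, 30 and 23.5 FPKM in copper-treated WT, 21.5, 21.4 and 7.05 FPKM in untreated ∆ArAceA, and 3.34, 0 and 1.81 FPKM in copper-treated ∆ArAceA. Its copper libraries in ∆ArAceA were below all others, and the third ∆ArAceA library without copper was the next lowest. M433DRAFT_62118 was a gene of low level, at 7.84, 5.05 and 13.6 FPKM in untreated WT, 10.1, 9.14 and 8.51 FPKM in copper-treated WT, 5.74, 4.58 and 4.75 FPKM in untreated ∆ArAceA, and 0, 0.39 and 0.28 FPKM in copper-treated ∆ArAceA. The values in the last group are near the lowest that the files list, so the size of its fall is uncertain. Its log2 change was -2.30 with a pseudocount of 1 and -3.99 with a pseudocount of 0.1.

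M433DRAFT_156184 differed most between the copper groups after these, with 30.6, 24.5 and 8.08 FPKM in WT with copper against 3.15, 3.51 and 1.82 FPKM in copper-treated ∆ArAceA. Without copper it had 15.4, 14.1 and 14.5 FPKM in untreated WT and 18.5, 16.1 and 15.6 FPKM in ∆ArAceA. The WT copper libraries straddled those without copper, with the third far below the others, while the ∆ArAceA libraries with copper lay below all 9 others. Among the lowest ratios of ∆ArAceA to WT with copper, WT was 41.4 times higher for M433DRAFT_62118, 15.7 times for M433DRAFT_62085 and 7.46 times for M433DRAFT_156184. For this comparison the authors' deposited table gave log2 ratios of -4.36, -0.91 and -2.09 in the same order. Its Q value (an adjusted p-value) for M433DRAFT_62085 was 0.0861, so the size of that gene's difference is uncertain.

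The other genes among the 10 largest falls started between 12.1 and 345 FPKM in WT. M433DRAFT_5466 went from 46.6 ± 5.17 to 9.66 ± 0.968 FPKM with copper in ∆ArAceA, and from 38.5 ± 2.54 to 27.1 ± 2.19 FPKM with copper in WT, the lowest change in WT of the 92 at -0.49. M433DRAFT_152627, M433DRAFT_4793 and M433DRAFT_63799 were 4.58, 4.78 and 4.53 times lower with copper in ∆ArAceA. In these 3 genes WT had means of 21.2 ± 6.24, 12.1 ± 2.70 and 24.2 ± 7.52 FPKM without copper and 17.3 ± 1.92, 9.42 ± 1.52 and 20.9 ± 2.55 FPKM with it. M433DRAFT_152336 had 443, 187 and 406 FPKM in untreated WT and 297, 335 and 185 FPKM in copper-treated WT, so that these groups overlapped. In ∆ArAceA it had 320, 372 and 286 FPKM without copper and 93.9, 86.4 and 65.3 FPKM with it, with the copper libraries below all others.

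**Figure D4:**
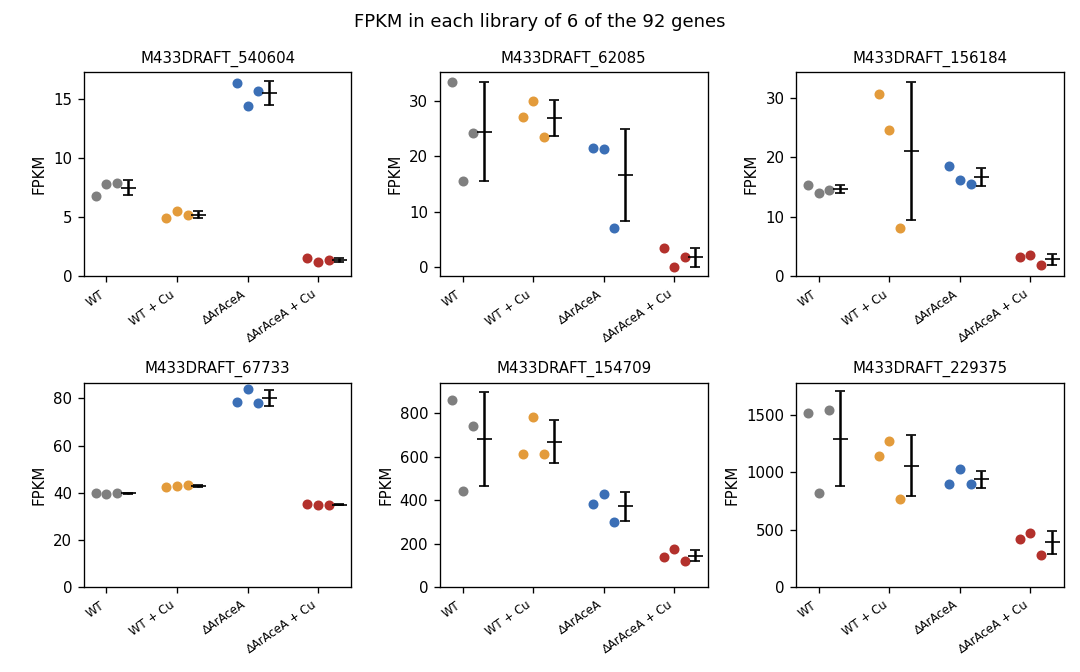
FPKM of 6 of the 92 genes in each library, with replicate 1, 2 and 3 from left to right in each group. Points are libraries, and the bar to their right gives the mean and SD of 3 libraries. M433DRAFT_540604 and M433DRAFT_67733 have their highest libraries in ∆ArAceA without copper, the other 4 genes have theirs in WT without or with copper, and the ∆ArAceA libraries with copper are the lowest in all 6.

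The most abundant of the 92 included genes that started below WT by mean and genes that started above it. M433DRAFT_229375 alone held 12.2% of the group's FPKM summed over the libraries, and the 6 most abundant genes by that sum held 36.7%. M433DRAFT_229375 had 1523, 816 and 1542 FPKM in untreated WT, 1140, 1275 and 765 FPKM in copper-treated WT, 900, 1025 and 898 FPKM in untreated ∆ArAceA, and 422, 471 and 279 FPKM in copper-treated ∆ArAceA. Only the last group stood apart from the other 3, which overlapped with one another. M433DRAFT_154709 had WT means of 682 ± 218 and 668 ± 99.3 FPKM without and with copper, against 371 ± 65.2 FPKM in ∆ArAceA and 145 ± 26.3 FPKM with copper.

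Among the genes most abundant in ∆ArAceA, M433DRAFT_136894, M433DRAFT_153817, M433DRAFT_8741 and M433DRAFT_23026 started above WT by mean. M433DRAFT_153817 had 318, 269 and 355 FPKM in untreated WT, 255, 302 and 254 FPKM in copper-treated WT, 609, 638 and 495 FPKM in untreated ∆ArAceA, and 150, 148 and 136 FPKM in copper-treated ∆ArAceA. Its ∆ArAceA libraries without copper were the highest of the 12 and those with copper the lowest. M433DRAFT_136894 moved from 605 ± 34.5 to 274 ± 15.4 FPKM, M433DRAFT_8741 from 512 ± 46.9 to 253 ± 15.2 FPKM and M433DRAFT_23026 from 425 ± 90.8 to 152 ± 14.4 FPKM with copper in ∆ArAceA. Their WT means with copper were 339 ± 31.3, 294.0 ± 49.0 and 275 ± 17.6 FPKM.

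In WT the change with copper was small, as the choice of genes required, and more often downward. It could lie only between -0.5 and 1, so its size and the calls below describe the group and are no test. Its median was -0.16 on the log2 scale, against -0.01 over all genes tested, with 70 genes below 0 and 22 at 0 or above. By limma 21 genes were called lower with copper in WT, against 10.7% of all genes tested, and 4 higher, against 10.6%, with 67 called neither way. Without 1 library the higher calls were 2 to 4, against 7.82% to 10.5% of all genes tested, with 2 when WT library 1 or 2, copper-treated WT library 1 or 2 or ∆ArAceA library 2 was left out. M433DRAFT_155297 had the largest WT rise by mean, 0.74, from 97.9, 48.9 and 88.4 FPKM to 135, 156 and 103 FPKM. Its copper libraries lay above the others in WT and it was not called. In ∆ArAceA it had 58.4, 61.9 and 49 FPKM without copper and 25.1, 37.3 and 18.7 FPKM with it. M433DRAFT_130518 had the next largest, from 20.0 ± 3.40 to 28.9 ± 1.86 FPKM, and was called higher. In ∆ArAceA it went from 33.9 ± 1.38 to 15.8 ± 0.469 FPKM. The response to copper was called more negative in ∆ArAceA than in WT for 88 of the 92, against 25.6% of all genes tested, and more positive for 0, against 20.2% (also 0 at an unadjusted p under 0.05), a count that the choice of genes favours.

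The choice used group means and not the order of the 3 libraries within a group, and the genes shared that order to a degree. Each library enters its group mean, so a low value in WT library 2 can bring a gene inside the limits on the WT values. Without that library the choice gave 87 genes, with 80 of the 92 among them. The counts of lowest libraries here and below are therefore not free of the choice, and they describe the group. In WT without copper, library 2 was the lowest of the 3 in 62 of the 92 genes, or 67.4%, against 22.1% of all genes tested. Over the 92 genes the median ratio of that library to the mean of the other two was 89.0%, against 104% over all genes tested, and the genes summed to 6632 FPKM there against 9656 and 9282 FPKM in libraries 1 and 3. In the other groups library 3 was most often the lowest, in 47 genes of WT with copper (31.9% of all genes tested), 53 of ∆ArAceA (34.3%) and 42 of ∆ArAceA with copper (24.1%). The shares over all genes tested depend on the scaling. After median-of-ratios scaling, an alternative chosen after seeing the data, WT library 2 was the lowest in 67 of the 92 genes, against 34.6% of all genes tested. The median ratio of that library to the mean of the other two was then 85.1% over the 92 genes and 99.5% over all genes tested. Library 3 was then the lowest in 53 genes of WT with copper (36.6% of all genes tested), 50 of ∆ArAceA (33.2%) and 51 of ∆ArAceA with copper (35.6%).

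A total of 21 genes, or 22.8%, were lowest in all 4 of these libraries at once, against 2.09% of all genes tested, with the 4 libraries picked after seeing the values. After median-of-ratios scaling they were 23, against 3.17% of all genes tested. Among the 21 were M433DRAFT_229375, M433DRAFT_154709, M433DRAFT_152336, M433DRAFT_153817 and M433DRAFT_156184. Their median log2 difference from WT with copper was -1.22. Of the 19 genes below WT without copper 16 were lowest in WT library 2, and of the 60 genes more than 0.5 above WT 37 were. The tendency was not limited to the 92 genes. WT library 2 was the lowest in 71.0% of the 31 genes that also fell in WT and in 43.6% of the 202 genes elevated in ∆ArAceA (74.2% and 55.0% after median-of-ratios scaling), and no test of these differences was made. What set these libraries apart was not tested.

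**Figure D5:**
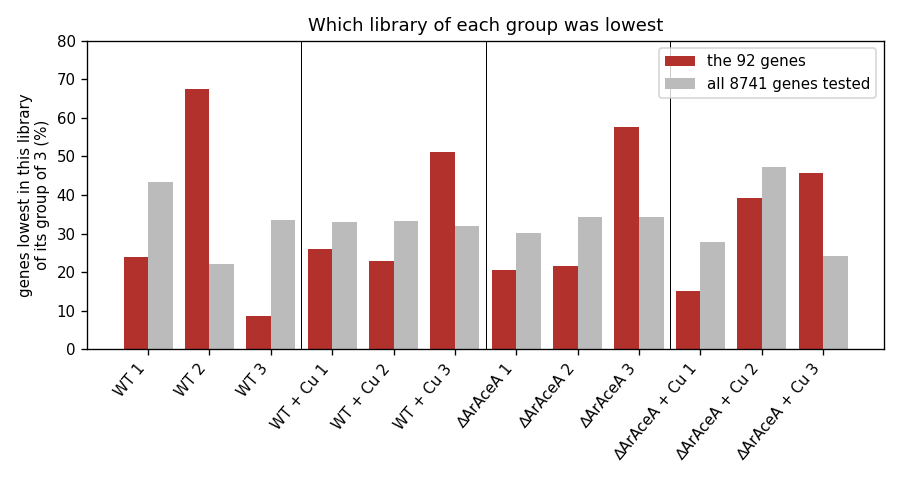
Share of genes whose lowest value within a group of 3 libraries was in the library shown, for the 92 genes and for all 8741 genes tested, from the FPKM as deposited. In WT without copper library 2 holds 67.4% of the 92 genes against 22.1% of all genes, and in each of the other groups library 3 has the largest share of the 92.

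This scatter widened the WT values most. The highest library exceeded the lowest by more than 1.5 times in 25 of the 92 genes in WT, against 12.6% of all genes tested, and WT library 2 was the lowest in 24 of the 25. The counts were 11 in WT with copper, 6 in ∆ArAceA and 12 in ∆ArAceA with copper, against 10.0%, 7.96% and 8.67%. More than 2 times was seen in 5, 4, 1 and 3 genes in these groups in the same order, against 5.23%, 3.75%, 3.28% and 3.25% of all genes tested. M433DRAFT_59214 had the widest ratio in ∆ArAceA with copper among genes with no value of 0, at 2.60, from 5.09, 4.53 and 1.96 FPKM. It had 11.4, 13.4 and 10.9 FPKM in ∆ArAceA without copper, so that the groups did not overlap. Without WT library 2 limma called 25 of the 92 genes lower with copper in WT, against 8.3% of all genes tested.

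The authors' deposited table gave a log2 ratio with a Q value for 4 comparisons. These rest on the same 12 libraries from which the genes were chosen. The counts below therefore describe the group and are no separate test of it. For copper in ∆ArAceA the authors' deposited table put 91 of the 92 genes lower at Q under 0.05, against 22.7% of the genes it gives a Q for, with a median log2 ratio of -1.16 and 82 genes at -1 or below. The exception was M433DRAFT_62085, with a log2 ratio of -0.82 and a Q of 0.141 in the authors' deposited table. For ∆ArAceA against WT without copper the authors' deposited table listed 56 of the genes higher, against 23.9%, and 9 lower, against 24.1%, with a median log2 ratio of 0.52. With copper it was 71 lower, against 17.2%, and 0 higher, against 15.6%, in the authors' deposited table. For copper in WT the authors' deposited table listed 4 higher, against 6.16%, and 17 lower, against 5.46%.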

How the data were processed

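RNA from mycelia of 12 cultures was sequenced, and the sample titles gave each culture's group and replicate number. Per the labels' protocols, TRIzol extracts were cleaned on columns. The FPKM values were made and deposited by the authors, per the file headers, and those in the 12 sample tables equalled those in the series table, with 0 columns left unmapped. The authors also deposited log2 ratios between groups and a Q value (an adjusted p-value) for each. The submitters' processing notes name DESeq2, RSEM 1.2.8 and HISAT2 2.1.0 without saying what each did. Genome build, annotation and strand are not given in the sources used here, and reads shared between near-identical or overlapping genes could not be separated.

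From the FPKM, limma 3.58.1 in R 4.3.3 (trend and robust moderation) was fitted on log2(FPKM + 1) to the 8741 genes that reached 1 FPKM in 3 or more libraries. A single fit over 4 groups gave 5 two-sided comparisons, with Benjamini-Hochberg adjustment over the 8741 genes in each and calls at an adjusted p under 0.05. The scale understates changes of genes of low level. The procedure was tested on simulated data. P-values measure the spread between these cultures only.

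The 92 genes, the gene groupings and the tests were chosen with earlier results of these data known. Genes named in the text are the 10 largest falls in ∆ArAceA, the 6 most abundant in ∆ArAceA without copper, the 2 highest and 2 lowest in each of the other 2 values of the choice, the 3 widest ratios and any value of 0 among the ∆ArAceA libraries with copper, the 3 lowest ratios to WT with copper, and 3 genes on either side of the limit. Planned counts by gene product were not made, since the files pair no products with the genes.

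Alternatives were a pseudocount of 0.1, no filter, the replicate number as a block, fits restricted to the groups compared, median-of-ratios and upper-quartile scaling, a test against a 2-fold change, medians in place of means, a floor of 10 FPKM, and leaving out each library.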

Additional observations from a re-analysis of the deposited data

Results flagged for a closer look

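The difference of the copper responses between ∆ArAceA and WT had its own test in limma (the interaction, adjusted p under 0.05). It called 88 of the 92 genes, all more negative in ∆ArAceA, against 25.6% of all genes tested called more negative. A gene was chosen only where copper lowered it in ∆ArAceA and moved it little in WT, so that count follows in large part from the choice. The 4 genes not called were M433DRAFT_229375, M433DRAFT_1733, M433DRAFT_9872 and M433DRAFT_72855. M433DRAFT_1733 and M433DRAFT_9872 were picked for naming after their values were seen, to complete this count.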

How the results depend on the processing

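All 92 genes were called lower with copper in ∆ArAceA with a pseudocount of 0.1, without the filter and with the block. They were so too in the fit on the groups compared, on both other scalings and without each library. In these settings 2343 to 2855 of all genes tested (8614 to 10043 genes) were called lower. The test against a minimum change of 2-fold called 17, and medians and the floor of 10 FPKM were applied to the choice of genes only. That test called 0 for copper in WT, 0 between the strains without copper, 9 between the strains with copper and 6 for the difference of responses, and over all genes 188, 41, 339, 116 and 86 in the same order. In both comparisons with 0 calls, 0 of the 92 genes had an unadjusted p under 0.05 against that minimum. The choice itself moved at its edges. It gave 104 genes with a pseudocount of 0.1 (81 of the 92 among them), 90 with medians (74), 96 with median-of-ratios scaling (79), 88 with upper-quartile scaling (68) and 84 with a floor of 10 FPKM (84). Leaving out each library gave 86 to 98 genes, and 48 of the 92 were kept in all 12 cases. Leaving out each library gave 17 to 27 calls among the 92 genes for copper in WT. Between the strains it gave 65 to 75 without copper and 57 to 66 with it, and for the difference of responses 86 to 90. Over the 8667 to 8732 genes tested in those fits the calls were 1308 to 1793, 4622 to 5117, 3384 to 4268 and 3575 to 3942 in the same order. The count of genes with more than 2-fold between libraries of ∆ArAceA with copper moved from 3 to 5 with median-of-ratios scaling. With 1.5 times as the limit the counts were 25, 11, 6 and 12 in WT, WT with copper, ∆ArAceA and ∆ArAceA with copper. Between the strains the median of all genes tested lay 0.12 higher in ∆ArAceA without and with copper, and at -0.01 and 0.00 after median-of-ratios scaling. The cause of these shifts was not tested. Replicate numbers did not pair the libraries: 0 of 18 same-numbered pairs correlated above 0.1 in their deviations from group means, over a range of -0.17 to 0.066. With the replicate number as a block the calls among the 92 genes were 92 for copper in ∆ArAceA and 21 for copper in WT. They were 69 and 63 between the strains without and with copper, and 88 for the difference of responses. Over the 8741 genes tested the calls were 4733, 1621, 4985, 3882 and 3791 in the same order. For copper in WT the 21 among the 92 were 2 higher and 19 lower, against 839 higher and 782 lower over all genes tested. Unknown read numbers limit the values under about 1 FPKM.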
